A study of Mus musculus with 2 samples.

Results

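Hes1, Hes5, Hes6, Hey1, Hey2 and Heyl encode the HES and HEY basic helix-loop-helix repressors, and they were followed here across the cell types of the embryonic mouse eye. The 6 genes were taken by symbol from the 31053 features counted, and the rule used no measured value. HES and HEY genes are the textbook targets of Notch signalling: a ligand on a neighbouring cell releases the intracellular part of a Notch receptor, which joins the DNA-binding protein Rbpj and switches them on. In the embryonic retina Hes1 and Hes5 hold progenitors undifferentiated by repressing proneural genes, Hes6 is induced in cells that leave the progenitor pool and counteracts Hes1, and the HEY genes are best known from blood vessels and the heart as well as from neural progenitors.

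Single cells of eyecups from E13.5 mouse embryos, which hold retina, lens and blood, were sequenced from 1 control and 1 double-mutant (DKO) embryo of the same mating. The control genotype was Six3+/-;Six6+/-, with 1 null allele of each gene, no Cre and normal eye morphology. The DKO genotype was Six3F/F;Six6-/-;a-Cre, in which Six6 was lost in the germline and the floxed exon of Six3 was removed by α-Cre. That Cre works in the peripheral but not in the central retina, so the DKO library mixed cells with and without the Six3 deletion, and its eyecups had been picked for GFP-positive rosettes. Both embryos carried at least 1 null allele of Six6, and no wild-type embryo was compared. With 1 library per genotype there were no replicates and no test, and every interval given in parentheses is an exact 95% interval that covers counting error only.

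The control library held 10315 cells and 85589515 UMIs (unique molecular identifiers, each standing for 1 captured RNA molecule), and the DKO library held 12672 cells and 85173276 UMIs. After filtering 9822 control and 12146 DKO cells remained, with medians of 7620 and 5879 UMIs, and 20 cell barcodes occurred in both libraries. Cells were clustered without the 6 genes, and clusters were called like a cell type from marker genes. Of the retinal cells, 8029 in control and 10708 in DKO, the naive-like class (the early progenitors, clusters 0, 1 and 4) held 3643 and 3129, and the neurogenic-like class (progenitors about to become neurons, clusters 3 and 11) held 1393 and 1542. Six6, the germline null gene, stood at 362 UMIs per 1000000 UMIs of the class (CPM) in naive-like control cells and at 51.3 and 41.5 CPM in the parts of the DKO class with high and low Six3. The 3′ reads lie away from the deleted first exon of Six3, so Six3 UMIs gave a transcript level and not the deletion itself.

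By their annotation in GRCm38, the assembly also called mm10, the genes lie apart. Hes1 occupies chr16:30064384-30067796 on the plus strand, Hes5 chr4:154960923-154962371 on the plus strand, Hes6 chr1:91411483-91414038 on the minus strand, Hey1 chr3:8663359-8667256 on the minus strand, Hey2 chr10:30832359-30842801 on the minus strand and Heyl chr4:123233556-123249875 on the plus strand. Hes5 overlaps Gm20421, which is read from the opposite strand. The coding sequence has 4 exons in Hes1 and Hes6, 3 in Hes5 and 5 in each HEY gene. The ends of the coding sequences show how the families differ, since the HES proteins close with a short peptide that recruits Groucho co-repressors. The last 36 coding bases and the stop codon are given 5′ to 3′ from the GENCODE transcripts, and capitals mark a run of 4 codons that starts with TGG, TAT or TAC and ends with CCN TGG.
Hes1: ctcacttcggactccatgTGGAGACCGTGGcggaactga
Hes5: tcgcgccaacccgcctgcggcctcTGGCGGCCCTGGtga
Hes6: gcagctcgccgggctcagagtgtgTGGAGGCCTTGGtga
Hey1: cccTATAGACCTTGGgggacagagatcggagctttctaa
Hey2: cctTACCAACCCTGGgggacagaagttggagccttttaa
Heyl: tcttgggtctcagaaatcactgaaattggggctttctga
The run stood directly before the stop codon in Hes5 and Hes6 and 2 codons before it in Hes1. In Hey1 and Hey2 it started with a tyrosine codon and lay 7 codons before the stop codon, and Heyl held no such run in these bases.

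The promoters carry the sequences that would read Notch and proneural factors, and RefSeq windows of the 250 bases before the start were at hand for Hes5, Hes6 and Hey2. Each is given 5′ to 3′ on the strand of its gene in GRCm38, with the Rbpj motif GTGGGAA on either strand and the E-box CAGCTG, a sequence bound by proneural factors, in capitals. The Hey2 window was shortened by 18 bases that lie in the GENCODE transcript, and for Hes6 the window before the start of the coding transcript is shown.
Hes5, chr4:154960673-154960922: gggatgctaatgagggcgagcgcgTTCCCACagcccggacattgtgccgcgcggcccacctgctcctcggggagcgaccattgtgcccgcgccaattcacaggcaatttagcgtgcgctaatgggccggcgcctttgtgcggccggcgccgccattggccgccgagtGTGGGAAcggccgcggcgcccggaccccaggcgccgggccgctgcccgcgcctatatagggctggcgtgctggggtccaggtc
Hes6, chr1:91413223-91413472: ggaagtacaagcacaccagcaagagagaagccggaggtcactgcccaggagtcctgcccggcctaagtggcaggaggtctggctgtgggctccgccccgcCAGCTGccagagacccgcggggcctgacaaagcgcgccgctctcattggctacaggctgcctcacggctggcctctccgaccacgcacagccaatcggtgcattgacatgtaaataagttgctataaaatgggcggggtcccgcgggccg
Hey2, chr10:30842802-30843033: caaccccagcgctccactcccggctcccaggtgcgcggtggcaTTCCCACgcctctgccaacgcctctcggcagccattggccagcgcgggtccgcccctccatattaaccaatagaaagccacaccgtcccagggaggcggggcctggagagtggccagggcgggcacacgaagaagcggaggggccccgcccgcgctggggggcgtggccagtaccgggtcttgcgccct
Hes5 held GTGGGAA at 2 places, starting 226 and 83 bases before its start, and Hey2 held it once, 207 bases before its start. Of all 32817 windows of 250 bases, 5.42% held this motif and 0.162% held it at 2 or more places. Hes6 held CAGCTG once, 150 bases before its start, as 13% of all windows did, and its letters did not include GTGGGAA. These matches describe letters in the windows and are not measured binding.

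In control cells Hes1 was highest in other classes than Hes5 and Hes6, which were both highest in neurogenic-like cells. Hes1 was highest in ciliary margin-like cells at 229 CPM (217 to 242) and in pigment epithelium-like cells at 192 CPM (163 to 224), followed by naive-like cells at 132 CPM (128 to 136), and the intervals of the first pair overlapped. It was at 30.3 CPM in neurogenic-like cells and at 2.85 CPM (22 UMIs) in ganglion-like cells. Hes5 reached 489 CPM (475 to 502) in neurogenic-like cells, against 121 CPM (97.5 to 149) in amacrine or horizontal-like, 101 CPM in naive-like and 62.3 CPM in photoreceptor-like cells. Hes5 thus went on into the neurogenic-like class where Hes1 was low, and both were near background in ganglion-like cells. Hes6 had its highest level, 741 CPM (725 to 758), in neurogenic-like cells, then 295 CPM (248 to 348) in photoreceptor-like and 290.1 CPM (253 to 331) in amacrine or horizontal-like cells, a pair that overlapped, and 84.0 CPM in naive-like cells.

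Hey1 was at 53.2 CPM (38.0 to 72.5) in amacrine or horizontal-like, 38.0 CPM (34.4 to 42) in neurogenic-like and 35.3 CPM (20.6 to 56.5) in photoreceptor-like control cells, 3 levels with overlapping intervals, and at 12.3 CPM in naive-like cells. Heyl stayed low, with 157 UMIs or 4.37 CPM in naive-like and 78 UMIs or 7.53 CPM in neurogenic-like control cells. Hey2 had 59 UMIs (1.64 CPM) in naive-like control cells, and its highest retinal level, 9.96 CPM (4.30 to 19.6) in pigment epithelium-like cells, rested on 8 UMIs. Red blood-like cells of cluster 8, which should not express the retinal members, gave the background: at 2000 UMIs per cell at most 0.902% of the 776 control cells and 0.727% of the 275 DKO cells held a UMI of any 1 of the 6 genes, with median depths of 9067 and 7223.5 UMIs. Per cell, Hes1 was seen in 20.3% (19.0 to 21.7) of naive-like control cells at that depth and in 52.8% without thinning, with 37 shallower cells left out. Hes6 was seen in 69.0% (66.4 to 71.4) of neurogenic-like control cells, in 94.2% without thinning, with 24 left out.

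**Figure D1:**
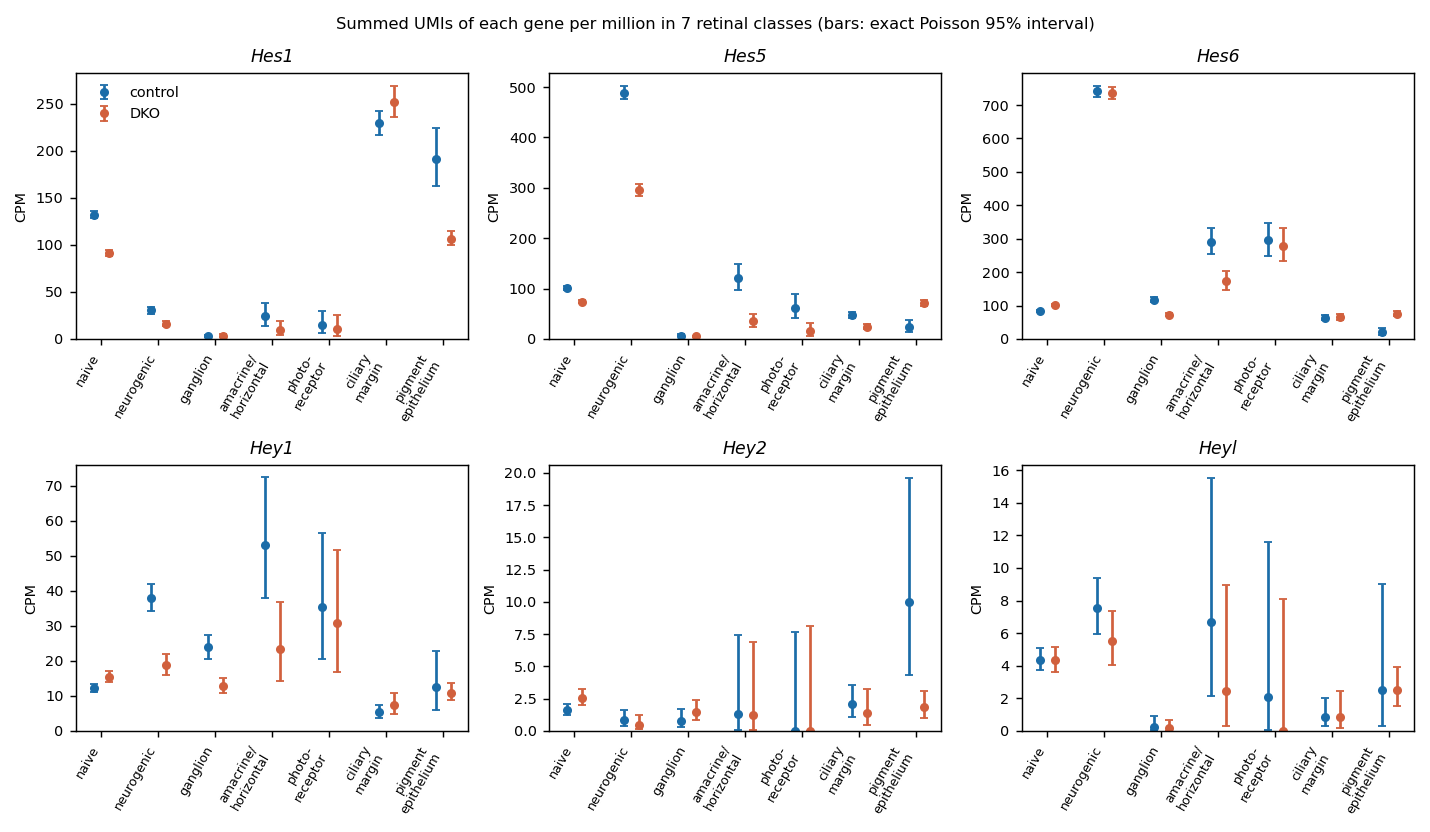
Level of each of the 6 genes (vertical axes, UMIs per 1000000 UMIs of the class, linear from 0, a scale for each gene) in 7 retinal classes of the control (blue) and DKO (orange) library; points are sums over all cells of a class and bars exact Poisson 95% intervals. Hes1 peaks in ciliary margin-like cells (229 CPM in control), Hes5 and Hes6 in neurogenic-like cells (489 and 741 CPM).

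Of all retinal UMIs of Hes1 in control, 68.7% came from naive-like cells, a class that held 55.1% of all retinal UMIs. In DKO the same class gave 52.7% of the Hes1 UMIs and held 39.2% of all retinal UMIs. Pigment epithelium-like cells gave 16.5% of the Hes1 UMIs in DKO, against 2.24% in control. Their share of all retinal UMIs was also larger in DKO, at 10.5% against 1.23%, so these Hes1 shares follow the size of the class as well. Hes6 came mostly from neurogenic-like cells, 59.3% of its UMIs in control and 49.3% in DKO, although these cells held 15.9% and 11.6% of all retinal UMIs. The genes with the profile most like that of Hes1 over 14 retinal clusters of control cells were Hmga2, Id3 and Rest (Pearson r of log2(CPM + 1) 0.98 for each). Mybl1, Atoh7 and Rgs16 were most like Hes6 (r of 0.96, 0.96 and 0.95), Ewsr1, Ddx52 and Elavl1 most like Hes5 (0.91, 0.91 and 0.89) and Acsl6, Ccdc174 and Rassf4 most like Hey1 (0.91, 0.88 and 0.88). Among the members r was highest for Hes5 and Heyl (0.90) and for Hes6 and Hey1 (0.70) and lowest for Hes1 and Hey1 (-0.64), while Hes1 and Hes5 had r = 0.57 and Hes1 and Hes6 r = -0.41. Heyl reached at most 8.61 CPM in these clusters, under the limit of 50 CPM, so its r rests on low counts. The points are clusters of 1 library that share its depth, and these values only describe likeness.

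The comparison of the genotypes set whole DKO classes, which mix cells with and without the Six3 deletion, against control. Six3 was at 300.4 CPM in control and 235 CPM in DKO in naive-like cells and at 309 and 286 CPM in neurogenic-like cells. It was at 131 and 80.0 CPM in pigment epithelium-like cells. In ganglion-like cells (753 and 833 CPM) and ciliary margin-like cells (266 and 294 CPM) it was not lower in DKO. In naive-like cells Hes1 and Hes5 were lower in the DKO library. Hes1 counted 4732 UMIs in control and 2583 in DKO, or 132 and 91.5 CPM, a log2 ratio of -0.53 (-0.60 to -0.46). Hes5 counted 3616 and 2088 UMIs, or 101 and 73.9 CPM, a log2 ratio of -0.45 (-0.52 to -0.37). Hes6 was higher in DKO, at 84.0 and 102 CPM (log2 ratio 0.28, 0.20 to 0.35), and so was Hey1, at 12.3 and 15.5 CPM (0.34, 0.14 to 0.53). Heyl stood at 4.37 and 4.32 CPM (-0.02, -0.37 to 0.33) and Hey2 at 1.64 and 2.55 CPM (0.63, 0.12 to 1.15, from 59 and 72 UMIs). Genes were compared by size when 1 library or both held 100 UMIs and 50 CPM or more. Hes1, Hes5 and Hes6 were the 3 members that did, and none of them was 2-fold apart, as 1.20% of the 3489 genes compared were. Without integration of the libraries the log2 ratio of Hes1 was 0.061 and that of Hey1 -0.0022, and 13.2% of the naive-like DKO cells from subclusters with low Six3 kept that name, against 98.3% of the control cells.

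The same direction was seen cell by cell. At 2000 UMIs per cell Hes1 was found in 20.3% of naive-like control and 16.1% (14.8 to 17.5) of DKO cells, Hes5 in 14.8% and 11.3% (10.2 to 12.4) and Hes6 in 12.9% and 15.0% (13.7 to 16.3), with 37 control and 39 DKO cells left out. Without thinning the DKO shares were 40.4%, 30.4% and 37.0%, against 52.8%, 40.6% and 38.5% in control, and median depths were 8596 and 7759 UMIs. For Hes6 the unthinned shares had the other order, so the order of its shares was not read from them. Naive-like control cells lay mostly in clusters 0 and 1 (1562 and 1407 cells), DKO cells were spread over clusters 0, 1 and 4 (1000, 1134 and 995), and the ratios differed among these clusters. Hes5 was lowest against control in cluster 1, the cluster led by S phase histone genes, with 83.4 and 41.5 CPM (log2 ratio -1.01, -1.16 to -0.86). It was the 1 member of 3 past 2-fold lower there, where 0.313% of genes were. Hes5 met the limit of 50 CPM in control alone, the library where it was high, so the limit favoured this call. Hes1 differed most in cluster 4, with 124 and 62.1 CPM (-1.0, -1.15 to -0.85), and least in cluster 1, with 145 and 120.7 CPM (-0.26). Hes6 was higher in DKO in cluster 4 (105 and 149 CPM, log2 ratio 0.50) and within counting error in clusters 0 (-0.00) and 1 (-0.09).

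Other markers moved with these levels in the naive-like class. Summed over all 6 naive markers the level was 4548 CPM in control and 3471 CPM in DKO, with 2 of 6 higher in DKO. The lower sum came from Sfrp2, at 1960 and 840 CPM, while the log2 ratios of the other naive markers lay between -0.21 and 0.15. All 6 pigment epithelium markers were higher in DKO (7.80 and 43.1 CPM summed), and so were 5 of 6 ciliary margin markers (255 and 458 CPM). The 7 ganglion markers summed to 56.0 and 112 CPM, the 6 lens markers to 212 and 102 CPM, with 1 of 6 higher in DKO, the 7 vascular markers to 71.6 and 43.5 CPM, and the red blood markers to 3225 and 2465 CPM. Nearly all of the vascular sum was Kdr, at 69.9 and 42.1 CPM, which was also a leading gene of the naive-like cluster 0. The part of these markers in the levels of the HES genes was not tested.

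In neurogenic-like cells Hes1, Hes5 and Hey1 were lower in DKO and Hes6 was level. Hes5 counted 5066 UMIs in control and 2457 in DKO, or 489 and 295 CPM, a log2 ratio of -0.73 (-0.80 to -0.66). Hes1 was at 30.3 and 16.2 CPM (-0.90, -1.20 to -0.61) and Hey1 at 38.0 and 18.9 CPM (-1.01, -1.29 to -0.74). Hes6, with 7681 and 6118 UMIs, was at 741 and 735 CPM (-0.01, -0.06 to 0.04), an interval well within 1.5-fold. Heyl was at 7.53 and 5.53 CPM (-0.44, -1.0 to 0.10), and Hey2 had 9 and 4 UMIs. Neither Hes5 nor Hes6, the members that reached 50 CPM, passed 2-fold, as 1.78% of 3544 genes did in either direction, and Hes5 passed 1.5-fold on the lower side, as 2.43% did. With a limit of 10 CPM the count was 1 of 4 members, Hey1, where 0.877% of 8212 genes were 2-fold lower. Without integration the log2 ratio of Hey1 was -0.43, which ends this call, and that of Hes1 was -0.36. With that setting 97.2% of the neurogenic-like control cells kept the name. Among the neurogenic-like DKO cells 76.7% from subclusters with high Six3 and 10.5% from those with low Six3 did. At 2000 UMIs per cell Hes5 was found in 36.2% (33.7 to 38.8) of the control class and in 23.3% (21.2 to 25.5) of the DKO class, Hey1 in 8.33% and 3.16%, and Hes6 in 69.0% and 66.7%, with 24 and 57 cells left out. The unthinned shares were 53.8% and 33.6% for Hes5, 19.5% and 7.26% for Hey1 and 94.2% and 86.8% for Hes6, at median depths of 6769 and 4856 UMIs.

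The 2 neurogenic-like clusters separated the genes further. In cluster 3, most of whose cells were called G1, Hey1 stood at 51.8 CPM (45.9 to 58.3) in control and 19.5 CPM (16 to 23.6) in DKO, a log2 ratio of -1.41 (-1.74 to -1.08). It was the 1 of 3 members over 2-fold apart, where 2.63% of genes were so in either direction. Hey1 met the limit of 50 CPM in control alone, the library where it was high, so the limit favoured this call. In the mitotic cluster 11 Hey1 was at 23.3 and 17.6 CPM (-0.41, -0.92 to 0.09). Hes5 was further below control in cluster 11 (528 and 273 CPM, -0.95) than in cluster 3 (452 and 307 CPM, -0.56), and Hes6 was higher in DKO in cluster 11 (909 and 1079 CPM, 0.25). Whether the ratios differ between clusters was not tested. The 5 neurogenic markers summed to 5184 CPM in control and 3807 CPM in DKO, with 2 of 5 higher in DKO. The 7 ganglion markers summed to 528 and 489 CPM. Of these, Isl1 (257 and 115 CPM) and Ebf1 (86.3 and 68.3 CPM) were lower in DKO, while Sncg, Nefl, Nefm, Ebf3 and Gap43 were higher. The 6 lens markers summed to 215 and 114 CPM. The part of all these markers in the ratios of the HES and HEY genes was not tested.

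**Figure D2:**
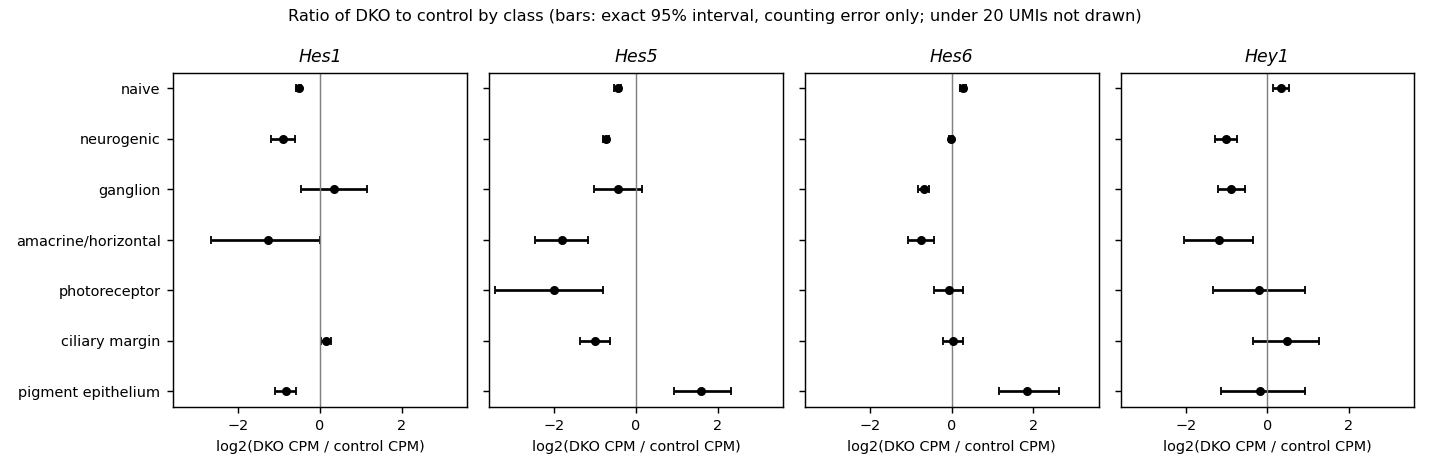
Log2 ratio of the DKO level over the control level (horizontal axes, 0 marks equal CPM) for Hes1, Hes5, Hes6 and Hey1 in 7 retinal classes; bars are exact 95% intervals from the split of the UMIs, and pairs with under 20 UMIs in all are not drawn. Hes5 lies below 0 in neurogenic-like cells (-0.73) and above 0 in pigment epithelium-like cells (1.59), and Hey1 lies above 0 in naive-like cells (0.34) and below 0 in neurogenic-like cells (-1.01).

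Beyond the progenitors the members went different ways. The ganglion-like class, the first retinal neurons, pooled cluster 6 (357 control and 852 DKO cells) and cluster 7 (542 and 618). The part of this mix in the ratios of the class was not tested. In ganglion-like cells Hes6 was at 117 CPM in control and 72.5 CPM in DKO (log2 ratio -0.69, -0.83 to -0.55). Its fold was past 1.5, as 2.30% of genes were on the lower side. Hey1 was at 23.8 and 12.9 CPM in ganglion-like cells (-0.89, -1.22 to -0.56). Hes1 and Hes5 were at 2.85 and 3.59 CPM and at 6.74 and 4.97 CPM there, with intervals of both ratios that include 0. In amacrine or horizontal-like cells (132 and 192 cells) Hes5 was at 121 and 34.6 CPM (-1.81, -2.47 to -1.18) and Hes6 at 290.1 and 173 CPM (-0.74), and in photoreceptor-like cells (90 and 119 cells) Hes5 counted 30 and 7 UMIs (-2.02, -3.45 to -0.80) whereas Hes6 was at 295 and 279 CPM (-0.08, -0.43 to 0.28).

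Ciliary margin-like cells, which form the rim of the retina, kept the highest Hes1 level in both libraries, 229 CPM in control and 252 CPM in DKO (log2 ratio 0.14, 0.01 to 0.26). Hes5 was at 47.3 and 23.6 CPM in them (-1.0, -1.37 to -0.64) and Hes6 at 63.9 and 65.0 CPM (0.03). The pigment epithelium-like class (cluster 10) held 70 control and 969 DKO cells. It also met the marker rule of the ciliary margin, and it was named by the class whose markers had the larger median fold over other cells. Its 10 leading genes were Pmel, Dct, Gpnmb, Trpm1, Tacr3, Slc38a8, Slc4a5, Krt18, Gja1 and Wls. Gja1 and Wls are on the list of ciliary margin markers, and the study also used Trpm1 and Dct as markers of the ciliary margin. Hes1 was lower in its DKO cells, at 192 and 107 CPM (-0.84, -1.09 to -0.59). Hes5, at 23.7 and 71.0 CPM (1.59, 0.93 to 2.33), and Hes6, at 21.2 and 76.0 CPM (1.84, 1.15 to 2.63), were higher there. They were 2 of 3 members past 2-fold higher, as 3.93% of genes were. Both met the limit of 50 CPM in DKO alone, the library where they were high, so the limit favoured these calls. Hey2 had 8 and 14 UMIs in this class, or 9.96 and 1.85 CPM (-2.43, -3.78 to -0.97). Since 969 of its cells came from 1 library, the cells compared under this name may differ between the genotypes. Cluster 5, led by Tbr1, Lhx9, Rspo3 and Eomes and left without a name, held 71 control and 1443 DKO cells. Hes6 was at 344 and 138 CPM in it (-1.32, -1.57 to -1.07), the 1 member tested, where 1.38% of genes were 2-fold lower. As in cluster 10, nearly all cells came from 1 library, so the cells compared may differ between the genotypes. Notch1 was at 69.7 and 20.2 CPM in cluster 5 and Neurog2 at 30.5 and 205 CPM, with 32 and 14 UMIs in control.

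Because α-Cre spared the central retina, DKO cells were also divided by the Six3 level of subclusters formed from DKO cells alone, where low meant a Six3 level that was less than 50% of that in control. Among naive-like DKO cells 1826 lay in Six3-high and 1303 in Six3-low subclusters, with Six3 at 332 and 113 CPM against 300.4 CPM in control. Hes1 was at 121 CPM (116 to 127) in the Six3-high cells, a log2 ratio to control of -0.12 (-0.20 to -0.05), and at 54.2 CPM (50.2 to 58.5) in the Six3-low cells, a ratio of -1.28 (-1.40 to -1.17). This order held in each naive-like cluster: 101 and 50.8 CPM in cluster 0 (control 118), 129 and 85.4 CPM in cluster 1 (control 145) and 125 and 46.3 CPM in cluster 4 (control 124). Hes5 had the opposite order, at 53.5 CPM in Six3-high and 99.6 CPM (94.2 to 105) in Six3-low cells against 101 CPM in control. Within the clusters, however, Hes5 lay below control in both kinds of cell, at 57.2 and 73.0 CPM in cluster 0 (control 88.7), 38.6 and 53.6 CPM in cluster 1 (control 83.4) and 115 and 119.9 CPM in cluster 4 (control 158). Of the 1303 Six3-low cells 798 were in cluster 4, the cluster with the highest Hes5 level.

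Hes6 was at 90.7 CPM in Six3-high and 116 CPM in Six3-low naive-like cells, and Hey1 at 12.7 and 19.1 CPM (log2 ratio of the latter to control 0.64, 0.40 to 0.87). These levels are pooled over the naive-like clusters, and most Six3-low cells lay in cluster 4. In control cells called G2/M, Hes6 was at 104 CPM in cluster 4 and 87.2 CPM in cluster 1. Hey1 was at 15.6 and 11.5 CPM in them, with overlapping intervals. The part of the cluster mix in the pooled levels of Hes6 and Hey1 was not tested. In neurogenic-like cells, 980 Six3-high and 562 Six3-low, Hes1 differed little between the kinds (15.9 and 16.9 CPM, control 30.3), Hes5 stood at 269 and 348 CPM (control 489), and Hey1 at 24.2 and 8.27 CPM (control 38.0), a ratio of -2.20 (-2.88 to -1.59) in the Six3-low cells. Hes6 was at 772 and 662 CPM (control 741). In ciliary margin-like cells, 370 Six3-high and 76 Six3-low, Hes1 was at 267 and 167 CPM (control 229) and Hes5 at 19.5 and 46.9 CPM (control 47.3). The naive markers summed to 4539 CPM in Six3-high naive-like cells, close to the 4548 CPM of control, and to 2131 CPM in Six3-low cells, with 1 of 6 above control. The pigment epithelium markers summed to 57.4 and 25.1 CPM in them, and the part of these differences in the Hes1 level was not tested.

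**Figure D3:**
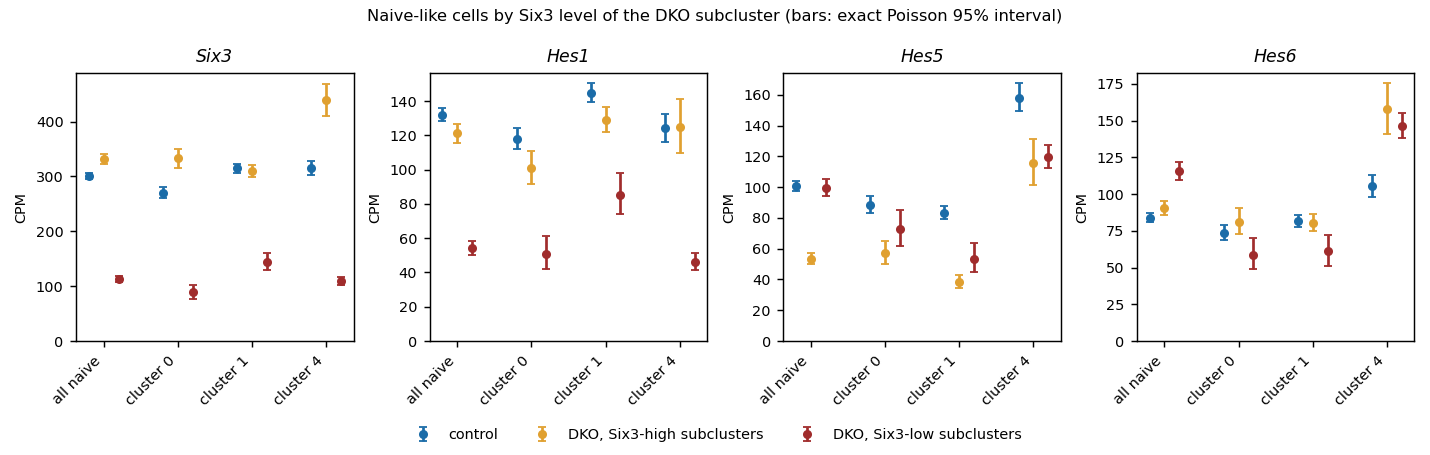
Levels of Six3, Hes1, Hes5 and Hes6 (vertical axes, CPM, linear from 0) in all naive-like cells and in clusters 0, 1 and 4, for control cells (blue), DKO cells of Six3-high subclusters (yellow) and DKO cells of Six3-low subclusters (red); bars are exact Poisson 95% intervals. In each cluster the Six3-low cells have the lowest Hes1 level (50.8, 85.4 and 46.3 CPM), and Hes5 lies below control in both kinds of DKO cell.

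Levels were also read by cell cycle phase, called at 2000 UMIs per cell. In naive-like control cells Hes1 was at 128 CPM in G1, 127 CPM in S and 138 CPM in G2/M, whereas Hes5 was at 73.9, 99.3 and 115 CPM. In DKO Hes1 was lower in each phase, at 72.7 CPM (60.6 to 86.5), 94.8 and 90.5 CPM, and so was Hes5, at 52.7, 61.8 and 88.4 CPM. With phases called on all UMIs, however, Hes5 in G1 was at 70.7 CPM in control and 65.5 CPM (53.3 to 79.8) in DKO, with overlapping intervals. Hes6 was higher in DKO in G2/M, at 94.4 and 125 CPM, whereas it was at 78.2 and 83.8 CPM in S and at 74.0 and 58.4 CPM in G1, with overlapping intervals in both. Of the naive-like cells 24.5% were called G1 in control and 8.32% in DKO, so the phases were compared one by one. In neurogenic-like control cells Hes6 was at 552, 759.5 and 949 CPM in G1, S and G2/M, and Hey1 at 60.9 CPM (53.8 to 68.6) in G1 but at 11.2 CPM (7.15 to 16.6) in S. In DKO the G1 level of Hey1 was 21.6 CPM (17.5 to 26.3), that in S was 14.9 CPM, and in G2/M Hey1 was at 26.7 CPM in control and 16.6 CPM in DKO.

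**Figure D4:**
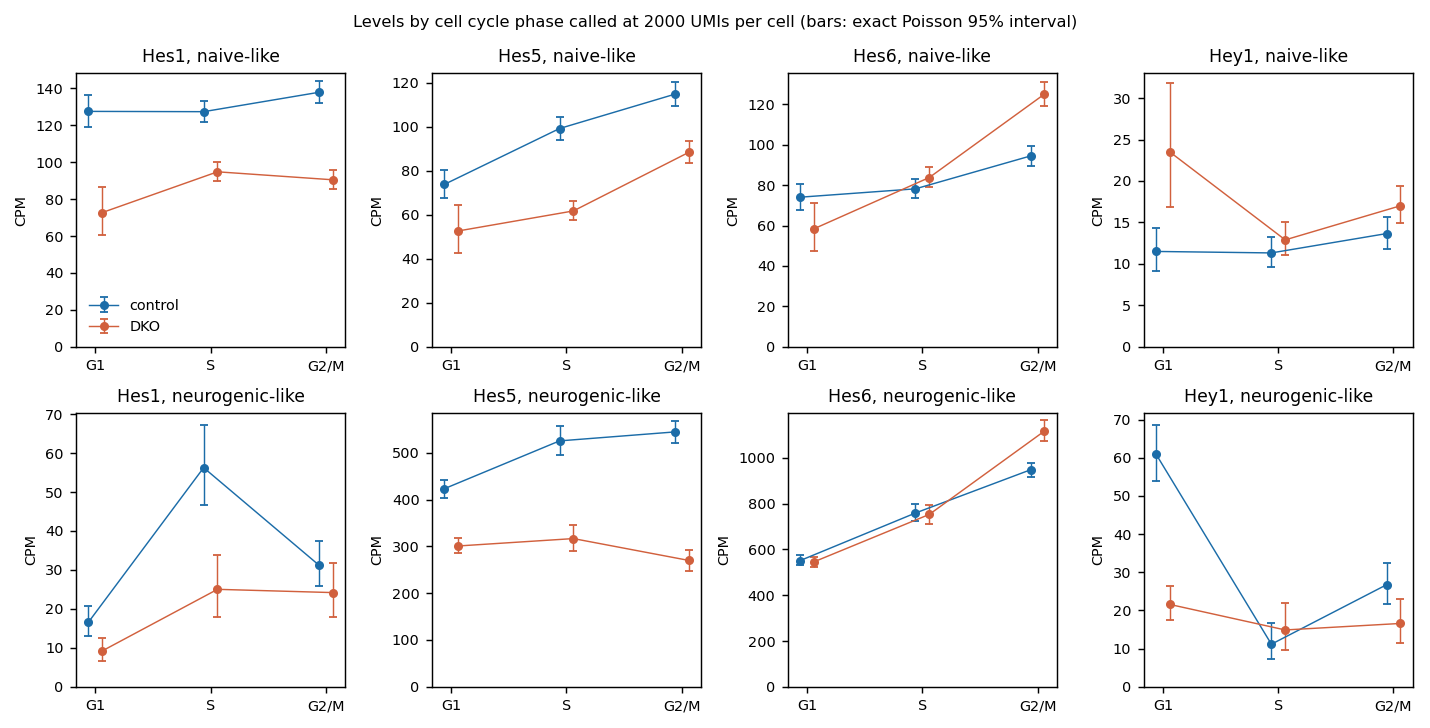
Levels of Hes1, Hes5, Hes6 and Hey1 (vertical axes, CPM, linear from 0) in cells called G1, S and G2/M in naive-like (top) and neurogenic-like (bottom) cells of control (blue) and DKO (orange); bars are exact Poisson 95% intervals. Hey1 in neurogenic-like G1 cells stands at 60.9 CPM in control and 21.6 CPM in DKO, and Hes6 climbs from G1 to G2/M in both libraries.

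Members were also read in the same cells, thinned to 2000 UMIs. Of naive-like control cells with a Hes1 UMI 14.9% (12.4 to 17.7) also held Hes5, and of those without 14.8%, a share within that interval. Hes6 was held by 18.6% (15.4 to 22.1) of naive-like control cells with Hes5 and 11.9% (10.8 to 13.1) of those without, and by 23.9% and 13.9% in DKO. Cells with a UMI of Dll1, the Notch ligand of cells entering neurogenesis, held Hes6 in 43.6% (27.8 to 60.4) of 39 naive-like control cells and 53.3% (42.6 to 63.7) of 92 DKO cells, against 12.6% and 13.8% of the other cells. In neurogenic-like cells Hes5 and Hes6 without Hes1 were found together in 24.3% of the control class and in 16.2% of the DKO class, and Hes6 alone in 41.9% and 49.0%. Of neurogenic-like DKO cells with a UMI of Dll1 37.3% (31.3 to 43.7) held Hes5, against 20.5% (18.3 to 22.8) of those without, while in control the shares were 40.3% (34.0 to 46.9) and 35.4% (32.6 to 38.2). These shares come from cells of 1 library each and share its depth.

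In the progenitor classes the Notch receptors and ligands with enough UMIs to compare were near their control level. Notch1, the main receptor here, was at 96.2 and 106 CPM in naive-like cells (log2 ratio 0.14) and at 255 and 226 CPM in neurogenic-like cells (-0.18), and Rbpj at 95 and 117 CPM (0.30) and at 304 and 388 CPM (0.35). Of 6 receptors and transducers 2 reached the size limits in each class and none passed 2-fold, with medians of 0.22 and 0.09 against 0.05 and 0.01 over all genes tested. In pigment epithelium-like cells Notch1 was at 38.6 and 90.1 CPM (1.22, 0.70 to 1.79) and was the 1 of 2 past 2-fold higher, as 3.93% of genes were. Notch1 met the limit of 50 CPM in DKO alone, the library where it was high, so the limit favoured this call. The ligands Dll1 (106 and 107 CPM) and Dll4 (56.0 and 56.9 CPM) were level in neurogenic-like cells, the only 2 of 6 ligands with sufficient counts. Dll1 was at 8.44 and 16.5 CPM in naive-like cells (0.96, 0.75 to 1.18), below the limit of 50 CPM. Of 6 modulators 2 were large enough in neurogenic-like cells, with Numbl at 38.6 and 58.5 CPM (0.60). Nrarp, a feedback inhibitor that Notch itself induces, was at 46.0 and 34.9 CPM in naive-like (-0.40) and at 28.6 and 21.3 CPM in neurogenic-like cells (-0.42). Of the 5 Groucho co-repressors, partners of HES proteins, 3 in naive-like and 4 in neurogenic-like cells could be compared and none was 2-fold apart (medians 0.14 and 0.05).

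Of the proneural genes, which HES proteins repress, Neurog2, Neurod1 and Neurod4 had higher values in DKO in both progenitor classes, while Olig2 was at 19.3 and 16.3 CPM in neurogenic-like cells (log2 ratio -0.24, -0.56 to 0.08). In neurogenic-like cells 2 of the 3 that reached the limits were over 2-fold higher, against 1.16% of all genes: Neurog2, at 115 and 303 CPM (1.40, 1.3 to 1.5), and Neurod4, at 23.2 and 50.5 CPM (1.12, 0.89 to 1.36). Neurod4 met the limit of 50 CPM in DKO alone, the library where it was high, so the limit favoured its call. Neurod1 was at 335 and 534 CPM (0.67, 0.61 to 0.74). In naive-like cells none of the 7 reached 50 CPM, and Neurog2 was at 16.5 and 29.4 CPM (0.83). Atoh7, a proneural gene of the early retina outside these 7 and a marker used to name the neurogenic-like class, had the opposite direction, at 67.1 and 60.03 CPM in naive-like (-0.16, -0.25 to -0.07) and 3252 and 2266 CPM in neurogenic-like cells (-0.52). Of the 4 Id genes, whose products bind and block basic helix-loop-helix proteins, 3 had lower values in DKO in both progenitor classes. In neurogenic-like cells Id1 was at 322 and 166 CPM (-0.96), Id2 at 111 and 58.8 CPM (-0.92) and Id3 at 170.5 and 93.3 CPM (-0.87), and in naive-like cells the ratios were -0.53, -0.41 and -0.20. None of these 3 passed 2-fold in either class. Id4 was level, at 44.6 and 46.04 CPM in naive-like (0.04, -0.06 to 0.15) and 12.3 and 12.02 CPM in neurogenic-like cells (-0.03, -0.42 to 0.36), and in ganglion-like cells it was at 20.5 and 60.4 CPM (1.56). Of the other 6 HES-like genes none reached 50 CPM in the progenitor classes, and the largest count in naive-like cells was that of Bhlhe40, at 2.06 and 12.6 CPM (2.61, 2.25 to 2.99).

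Outside the retina, lens-like cells held Hes1 at 123 CPM in control and 187 CPM in DKO (log2 ratio 0.60, 0.43 to 0.78) and Hes5 at 27.5 and 45.8 CPM (0.73, 0.37 to 1.10), the opposite direction to the naive-like class. Heyl had its highest level, 51.5 CPM (27.4 to 88.0), in the 36 mesenchyme-like cells of both libraries, from 13 UMIs, against 3.15 CPM in all other cells. In the 17 cells with UMIs of 2 or more vascular markers other than Kdr, Hes1 was at 184 CPM (138 to 240). Hey1 was at 34.0 CPM (16.3 to 62.6) in these cells, from 10 UMIs. All other cells held Hes1 at 81.2 CPM and Hey1 at 15.5 CPM.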

How the data were processed

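Per the labels, 1 control and 1 DKO library of eyecups were made with the 10x Genomics 3′ kit. The authors deposited UMI counts per gene and cell, whole numbers without normalization, made with Cell Ranger 3.1.0 against mm10 according to the submitters' processing notes. The 6 genes and all gene lists were chosen with earlier results of these data known. The named genes are the 6 members, the listed pathway genes, Six3 and Six6, and for each member with at least 50 CPM in a retinal cluster the 3 genes with the highest Pearson r. Marker sums over whole lists, the leading genes of clusters 5 and 10, Atoh7 in the comparison of genotypes and Gm20421 were named after their values were seen.

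Following the study, only cells with over 200 and below 6000 genes were kept, and those with 20% or more mitochondrial UMIs were dropped. The libraries were integrated with Seurat 5.3.0 in R 4.3.3 (anchors on up to 2000 variable genes, 20 dimensions) and clustered at resolution 0.5, with a fixed linear algebra kernel, because the kernel moves the borders of the clusters. The 6 genes, the pathway lists, Six3, Six6, hemoglobin genes and genes of the sex chromosomes that mark sex were left out of the clustering features. Naming a class took 3 or more detected markers, with 75% of the markers of the class above their level in the other cells, a share set after the clusters had been seen. A cluster stayed unnamed when its 10 leading genes held more markers of another class, when its median UMIs lay under 33.3% of the sample median without such a marker, or when over 50% of its cells were called as doublets. Scrublet in scanpy 1.11.5 called 361 control and 407 DKO cells as doublets at the lower of the 2 automatic thresholds, and these stayed in. All DKO cells entered because the counts list no Cre feature.

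Levels are sums of UMIs per 1000000 UMIs of a class (CPM) with exact Poisson intervals. Intervals of ratios come from splitting the summed UMIs of a gene binomially (exact), and shares of cells have exact binomial intervals after each cell was thinned to 2000 UMIs. Pairs with 3 or fewer UMIs in each library got no fold. Calculations used scipy 1.17.1, pandas 2.3.3 and numpy 2.4.6 under Python 3.11.15, and plots matplotlib 3.10.9. The calculation of ratios was tested on simulated data. Sequences were taken from GENCODE transcripts and RefSeq promoter windows of GRCm38.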

Additional observations from a re-analysis of the deposited data

Results flagged for a closer look

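A gene is listed here when its ratio of DKO to control had opposite signs in different retinal classes, with counting intervals that leave out 0 on both sides. Each genotype had 1 library, and whether the classes differ was not tested. For Hes1 the log2 ratio was 0.14 in ciliary margin-like cells, but -0.53 in naive-like, -0.90 in neurogenic-like, -0.84 in pigment epithelium-like and -1.27 in amacrine or horizontal-like cells. For Hes5 it was 1.59 in pigment epithelium-like cells, but -0.45 in naive-like, -0.73 in neurogenic-like, -1.0 in ciliary margin-like, -1.81 in amacrine or horizontal-like and -2.02 in photoreceptor-like cells. For Hes6 it was 0.28 in naive-like and 1.84 in pigment epithelium-like cells, but -0.69 in ganglion-like and -0.74 in amacrine or horizontal-like cells. For Hey1 it was 0.34 in naive-like cells, but -1.01 in neurogenic-like, -0.89 in ganglion-like and -1.18 in amacrine or horizontal-like cells. For Hey2 it was 0.63 in naive-like cells, from 59 and 72 UMIs, and -2.43 in pigment epithelium-like cells, from 8 and 14 UMIs.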

How the results depend on the processing

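The log2 ratio of Hes1 in naive-like cells turned from -0.53 to 0.061 when the libraries were merged without integration, and that of Hey1 from 0.34 to -0.0022. With that setting 98.3% of the naive-like control cells and 13.2% of the DKO cells of Six3-low subclusters kept the name, and at resolution 1 73.1% and 42.5% did. In the neurogenic-like class 97.2% of control cells and 10.5% of Six3-low DKO cells kept their name without integration. Hes1 in naive-like cells was at -0.17 at resolution 1, -0.45 with all genes kept for clustering, -0.32 after thinning to 2000 UMIs, -1.28 with Six3-low DKO cells alone and -0.23 on the mean of counts per 10000 plus 1. Hes5 in naive-like cells was at -0.74 at resolution 1, -0.72 without integration, -0.017 with Six3-low cells alone and -0.17 on the mean of counts. Hes6 in neurogenic-like cells was at -0.25 at resolution 0.3, -0.20 at resolution 1, 0.18 without integration and -0.16 with Six3-low cells alone. In the same class Hes1 moved from -0.90 to -0.38 at resolution 0.3, -0.36 without integration and -0.14 on the mean of counts. Hey1 moved from -1.01 to -0.43 without integration, -1.33 after thinning, -2.20 with Six3-low cells alone and -0.24 on the mean of counts, and Hes5 from -0.73 to values between -0.997 at resolution 0.3 and -0.49 with Six3-low cells alone. Hey1 in naive-like cells was at 0.063 at resolution 1, 0.64 with Six3-low cells alone and 0.048 on the mean of counts. The number of members 2-fold apart in naive-like and neurogenic-like cells was 0, and 1 with a limit of 10 CPM (Hey1) or of 1.5-fold (Hes5). The share of neurogenic-like control cells with Hes6 that also held Hes5 was 37.1%, and 46.5% at 4000 UMIs per cell. The log2 ratio of Hes1 between S and G1 in naive-like control cells was -0.00, and 0.14 with phases called on all UMIs. The cause of these shifts was not tested. No paired analysis was possible because the design holds 1 library of either genotype.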
